A study of Mus musculus with 8 samples.

Results

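A set of 36 genes of cholesterol and fatty acid synthesis, among the 36333 genes in the expression table, was examined in the ventral prostates of hSKP2-KI and wild-type (WT) mice. The genes were listed by name from what is known of the pathways, with no rule on their values, though earlier results of these data were known. The sterol enzymes were 6 of the early mevalonate pathway, 2 at the prenyl branch point and 12 that build the sterol ring. The others were 8 genes of SREBP control and 8 of lipogenesis. SREBP control held the genes of the SREBP transcription factors, genes of their regulators, and Stard4, a cholesterol carrier. All 36 were among the 13080 genes that reached a TPM of 1 in 4 or more of the 8 samples and were tested. TPM, the deposited unit, scales reads to transcript length and sets each sample to the same total.

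The samples were ventral lobes from FVB/N mice at 12 months of age, 4 hSKP2-KI and 4 WT, each numbered 1 to 4. In hSKP2-KI mice the coding sequence of human SKP2, the substrate receptor of an SCF ubiquitin ligase, is placed behind a P2A peptide in exon 1 of the endogenous probasin gene, so the probasin promoter of prostate epithelial cells drives it. Heterozygous females were mated with wild-type FVB/N males to give the males studied. Several lines were founded, and the labels do not say which one gave these 4 mice. Mouse Skp2 read 48.1 ± 10.1 TPM (SD, n = 4) in hSKP2-KI and 1.75 ± 0.528 TPM in WT. Pbsn, the gene that carries the insertion, read 115 ± 39.6 and 5984 ± 2447 TPM. Reads were mapped to the mouse genome, per the study's methods. Reads of the human sequence that fall on mouse Skp2 cannot be told apart from its own in this value.

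Animal cells make cholesterol from acetyl-CoA through mevalonate, farnesyl diphosphate, squalene and lanosterol, and make fatty acids from acetyl-CoA through malonyl-CoA. SREBP-2, encoded by Srebf2, mainly drives the sterol genes, and SREBP-1, encoded by Srebf1, mainly the fatty acid genes. SCAP escorts both from the endoplasmic reticulum to the Golgi, where proteases release the active factor, and INSIG proteins hold the complex back when sterols are plentiful. Prostate epithelium is rich in these enzymes, many of which respond to androgen in prostate cells.

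Values are given on 2 scales, because the share of all TPM held by 3 secretory genes of the ventral lobe, Sbp, Spink1 and Sbpl, was 32.9% ± 1.01 in hSKP2-KI and 43.1% ± 2.48 in WT. With a fixed total, the other genes share what is left: over every gene tested, the median of the log2 fold change, hSKP2-KI against WT, was 0.23 in TPM as deposited and -0.01 after each sample was divided by its median ratio to the other samples. Samples of 1 genotype correlated at 0.981 to 0.990 over the tested genes. The summed TPM of 6 luminal epithelial markers was 1928 to 2174 in hSKP2-KI and 1638 to 1847 in WT in TPM as deposited, but after scaling their median log2 fold change was -0.10 and 0 of the 6 passed. Sums of fibroblast, smooth muscle, endothelial and macrophage markers were higher in every hSKP2-KI sample than in any WT sample, and their medians stayed above 0 after scaling, from 0.54 to 0.61. After scaling, 2 of 7 fibroblast, 3 of 5 smooth muscle, 3 of 5 endothelial and 0 of 6 macrophage markers passed, all higher. The fibroblast marker Col6a3 went the other way, at -0.45 in TPM as deposited and -0.71 after scaling. Seminal vesicle genes were at or near 0. In bulk tissue, fewer cells of a type and less RNA per cell cannot be told apart, and this holds for every gene described here.

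Sterol synthesis genes that passed the test on both scales were lower in hSKP2-KI than in WT, and the lipogenesis genes that did so were higher. In TPM as deposited, 4 of the 36 genes fell (Fdft1, Sqle, Sc5d and Scap) and 5 rose (Lbr, Insig2, Mbtps1, Acss2 and Me1) at an adjusted p under 0.05 in limma's moderated test, and 27 did not pass. Of all tested genes, 1.23% fell and 32.7% rose on that scale. After median-ratio scaling, 11 of the 36 fell (Idi1, Fdft1, Sqle, Tm7sf2, Msmo1, Hsd17b7, Sc5d, Dhcr7, Scap, Insig1 and Scd2), 2 rose (Acss2 and Me1) and 23 did not pass, beside 4.25% and 6.91% of all tested genes. Fdft1, Sqle, Sc5d and Scap fell, and Acss2 and Me1 rose, on both scales. Over the 36 genes the median change (log2) was -0.000715 in TPM as deposited and -0.25 after scaling, and 29 of the 36 lay below the median of all tested genes on either scale.

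The genotypes did not overlap in TPM as deposited for 2 lower and 5 higher members, where 1.03% of all tested genes were lower and 34.0% higher without overlap. After scaling, 12 members were lower and 2 higher without overlap, beside 8.91% and 10.3% of all tested genes. By role, the 20 sterol synthesis enzymes gave 3 lower and 1 higher in TPM as deposited and 8 lower and 0 higher after scaling, with medians of -0.09 and -0.34. The 8 genes of SREBP control gave 1 lower and 2 higher, then 2 lower and 0 higher, with medians of 0.08 and -0.18. The 8 lipogenesis genes gave 0 lower and 2 higher, then 1 lower and 2 higher, with medians of 0.13 and -0.12.

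**Figure D1:**
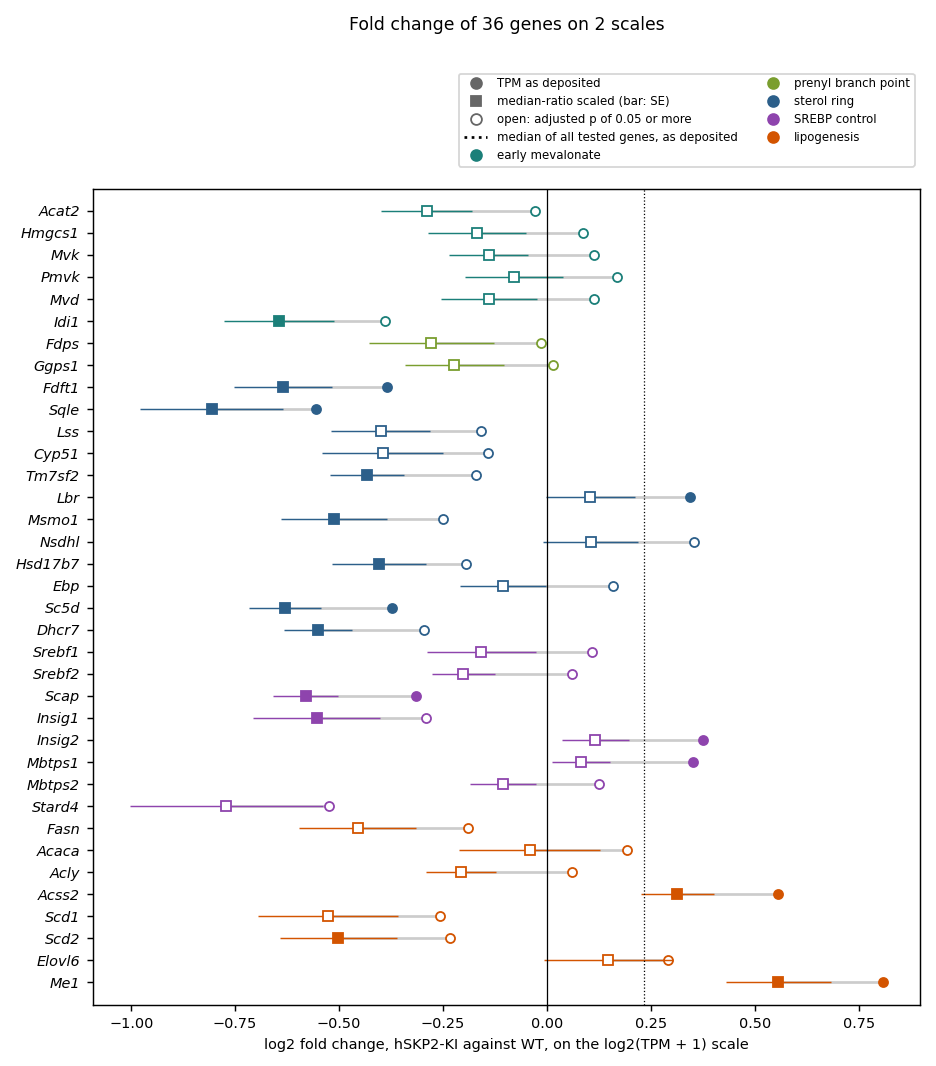
Log2 fold change (x axis, hSKP2-KI against WT, log2(TPM + 1) scale) of the 36 genes in rows by role, in TPM as deposited (circles) and median-ratio scaled (squares, bars are SE, n = 4 per genotype). Filled symbols passed an adjusted p of 0.05. The vertical lines mark 0 and the median of all tested genes in TPM as deposited, 0.23. Sqle and Stard4 lie farthest to the left and Me1 farthest to the right.

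**Figure D2:**
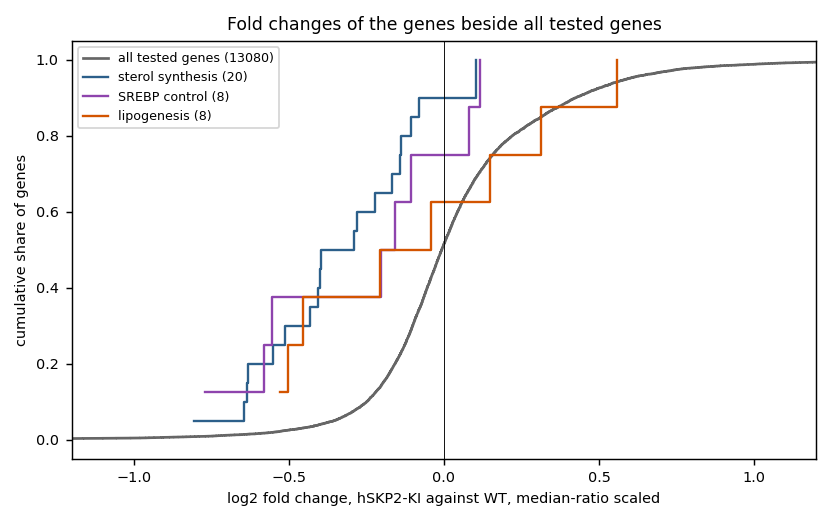
Cumulative share of genes (y axis) against median-ratio scaled log2 fold change (x axis) for 20 sterol synthesis genes, 8 SREBP control genes, 8 lipogenesis genes and all 13080 tested genes. The sterol synthesis curve lies to the left of that of all tested genes, with a median of -0.34 against -0.01. The axis is cut at 1.2 on either side.

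Promoter sequence is shown for 4 members whose values are described below. Hmgcs1 is shown because its window holds the sterol regulatory element searched for, Sc5d as a sterol enzyme that fell on both scales, and Acss2 and Me1 as the genes that rose. The windows run from 250 bases before to 50 bases after the RefSeq transcription start (GRCm38.p6), 5′ to 3′ on the gene's strand. Capitals mark matches on either strand to the sterol regulatory element TCACNCCAC, the NF-Y motif CCAAT, the Sp1 motif GGGCGG and the E-box CACGTG, and in Me1 a pair of Sp1 matches stand side by side.
Hmgcs1, chr13:119690101-119690400, plus strand: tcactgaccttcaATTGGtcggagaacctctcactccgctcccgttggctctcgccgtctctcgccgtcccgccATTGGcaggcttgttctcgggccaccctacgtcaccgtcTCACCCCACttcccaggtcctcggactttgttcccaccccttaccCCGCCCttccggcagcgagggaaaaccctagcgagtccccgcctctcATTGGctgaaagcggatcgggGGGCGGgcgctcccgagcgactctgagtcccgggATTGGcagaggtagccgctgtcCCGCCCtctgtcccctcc
Sc5d, chr9:42264251-42264550, minus strand: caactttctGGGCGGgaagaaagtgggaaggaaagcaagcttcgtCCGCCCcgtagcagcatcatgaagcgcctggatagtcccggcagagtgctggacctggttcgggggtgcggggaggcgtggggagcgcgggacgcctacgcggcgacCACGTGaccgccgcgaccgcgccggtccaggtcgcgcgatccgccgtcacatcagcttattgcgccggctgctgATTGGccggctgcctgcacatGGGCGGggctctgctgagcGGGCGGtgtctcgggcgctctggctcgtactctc
Acss2, chr2:155517793-155518092, plus strand: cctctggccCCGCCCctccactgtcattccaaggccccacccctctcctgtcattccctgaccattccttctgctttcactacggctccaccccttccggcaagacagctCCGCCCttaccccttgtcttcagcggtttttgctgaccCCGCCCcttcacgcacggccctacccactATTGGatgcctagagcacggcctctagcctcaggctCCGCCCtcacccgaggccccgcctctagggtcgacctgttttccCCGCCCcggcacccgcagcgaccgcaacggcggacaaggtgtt
Me1, chr9:86695865-86696164, minus strand: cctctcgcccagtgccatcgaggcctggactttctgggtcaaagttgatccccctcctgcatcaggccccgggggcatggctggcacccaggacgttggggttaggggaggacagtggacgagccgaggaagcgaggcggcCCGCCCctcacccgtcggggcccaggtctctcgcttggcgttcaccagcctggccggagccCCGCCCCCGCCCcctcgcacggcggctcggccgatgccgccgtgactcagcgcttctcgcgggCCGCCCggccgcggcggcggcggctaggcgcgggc
Of the 36 members, 30 had a window, and Fdft1, Fdps, Scd1, Scd2, Sqle and Stard4 had none. A gene counted for a motif if any of its windows held the letters given above. Me1 held the NF-Y motif only in another window, which is not shown. The sterol regulatory element was found in 1 of the 30 (Hmgcs1, 137 bases before the start), the NF-Y motif in 24, the Sp1 motif in 24 and the E-box in 5, or 3.33%, 80.0%, 80.0% and 16.7%. Of all 27025 genes with a window, coding or not, 1.44%, 41.1%, 38.2% and 8.09% held them. These matches are letters in a window and not binding sites.

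None of the 6 early mevalonate genes passed in TPM as deposited, and of these Idi1 alone fell after scaling. Hmgcs1, which joins acetyl-CoA to acetoacetyl-CoA at the head of the pathway, read 15.8, 18.9, 20.3 and 21.4 TPM in hSKP2-KI 1 to 4 and 15.5, 23.0, 14.4 and 19.5 TPM in WT 1 to 4. Its genotypes overlapped throughout, and the log2 fold change was 0.09 ± 0.15 (SE, adjusted p = 0.638) in TPM as deposited and -0.17 ± 0.12 (adjusted p = 0.392) after scaling. Idi1, which makes dimethylallyl diphosphate, averaged 14.6 ± 2.46 TPM in hSKP2-KI and 19.5 ± 4.03 in WT (SD, n = 4). Its log2 fold change was -0.39 ± 0.15 (adjusted p = 0.0636) in TPM as deposited and -0.64 ± 0.13 (adjusted p = 0.0162) after scaling, where the genotypes did not overlap. Idi1 passed in TPM as deposited when hSKP2-KI 3 (adjusted p = 0.0347) or WT 3 (0.0385) was left out. Acat2, Mvk, Pmvk and Mvd, the other enzymes from acetyl-CoA to isopentenyl diphosphate in the set, had log2 fold changes of -0.03 to 0.17 in TPM as deposited and -0.29 to -0.08 after scaling, and none passed.

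At the branch point, Fdps makes farnesyl diphosphate and Ggps1 the longer geranylgeranyl diphosphate used to anchor proteins. Fdps averaged 50.9 ± 8.00 TPM in hSKP2-KI and 52.1 ± 12.2 in WT, and Ggps1 6.996 ± 0.446 and 6.995 ± 1.35 (SD, n = 4). Neither passed the test on either scale. Their log2 fold changes were -0.01 and 0.01 in TPM as deposited, and after scaling Fdps had -0.28 (adjusted p = 0.264) and Ggps1 -0.22 (adjusted p = 0.259).

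Both enzymes that take carbon from farnesyl diphosphate to squalene epoxide fell on both scales. Fdft1, squalene synthase, read 10.7, 11.75, 11.6 and 8.42 TPM in hSKP2-KI 1 to 4 and 12.7, 16.3, 11.80 and 15.9 TPM in WT 1 to 4. All 4 hSKP2-KI samples lay below all 4 WT samples, though hSKP2-KI 2 and WT 3 were almost level. Its log2 fold change was -0.39 ± 0.13 (adjusted p = 0.0451) in TPM as deposited and -0.63 ± 0.12 (adjusted p = 0.0114) after scaling. Sqle, squalene epoxidase, a rate-limiting step of the sterol branch, read 10.97, 11.9, 13.7 and 9.73 TPM in hSKP2-KI and 14.1, 25.0, 12.4 and 20.7 TPM in WT. WT 2 and WT 4 were far above the rest, and only WT 3 overlapped the hSKP2-KI samples. Sqle had the lowest log2 fold change of the 36 genes on both scales, -0.56 ± 0.19 (adjusted p = 0.0471) in TPM as deposited and -0.81 ± 0.17 (adjusted p = 0.0189) after scaling, where its genotypes did not overlap.

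Near the end of the pathway, Sc5d, which introduces a double bond into the B ring, read 17.2, 18.6, 22.5 and 19.1 TPM in hSKP2-KI and 21.9, 27.5, 27.0 and 24.9 TPM in WT. Only hSKP2-KI 3 reached into the WT range. The log2 fold change was -0.37 ± 0.10 (adjusted p = 0.0213) in TPM as deposited and -0.63 ± 0.09 (adjusted p = 0.00369) after scaling. Dhcr7, which reduces 7-dehydrocholesterol to cholesterol, averaged 14.3 ± 1.15 TPM in hSKP2-KI and 17.9 ± 2.39 in WT (SD, n = 4). It fell after scaling (-0.55 ± 0.08, adjusted p = 0.00496, no overlap), with an adjusted p of 0.0533 in TPM as deposited that passed without WT 1 (0.0225). Each of Fdft1, Sc5d and Dhcr7 passed after scaling in all 16 alternatives tried, leaving out any 1 sample among them.

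Of the other sterol ring genes, Tm7sf2 (-0.43 ± 0.09, adjusted p = 0.0162) and Hsd17b7 (-0.40 ± 0.11, adjusted p = 0.0471), both reductases, and Msmo1 (-0.51 ± 0.13, adjusted p = 0.0308), the methyl sterol oxidase, fell after scaling and did not pass in TPM as deposited. Lss, which closes the ring, and Cyp51, which removes the methyl group at carbon 14, had scaled values of -0.40 (adjusted p = 0.0582) and -0.40 (adjusted p = 0.109), and neither passed. Cyp51 passed without WT 3 (adjusted p = 0.0359). Ebp and Nsdhl, an isomerase and a dehydrogenase of later steps, had -0.11 and 0.10 after scaling and did not pass. Lbr, a reductase of the inner nuclear membrane that shares the C14 step with Tm7sf2, rose in TPM as deposited (0.34 ± 0.12, adjusted p = 0.0477) and had 0.10 ± 0.11 after scaling (adjusted p = 0.581). Nsdhl passed in TPM as deposited without hSKP2-KI 1 (adjusted p = 0.0449) or WT 2 (0.0466), from 0.0651 with all samples.

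Several of these calls rested on all 8 samples. Without scaling, Fdft1 kept its call only when WT 3 was the sample left out (adjusted p of 0.0525 to 0.116 without any other), Sqle only when hSKP2-KI 3 or WT 3 was (0.050001 to 0.111), and Lbr only when WT 3 was (0.0601 to 0.107). Sc5d lost it without hSKP2-KI 1 (0.0513), hSKP2-KI 2 (0.0504) or WT 3 (0.0581). After scaling, Sqle lost its call without hSKP2-KI 4 (0.0506), Msmo1 without any sample other than hSKP2-KI 3 and WT 3 (0.0638 to 0.0771) and Hsd17b7 without any other than WT 3 (0.0506 to 0.112). The direction of these genes was the same in every such fit.

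**Figure D3:**
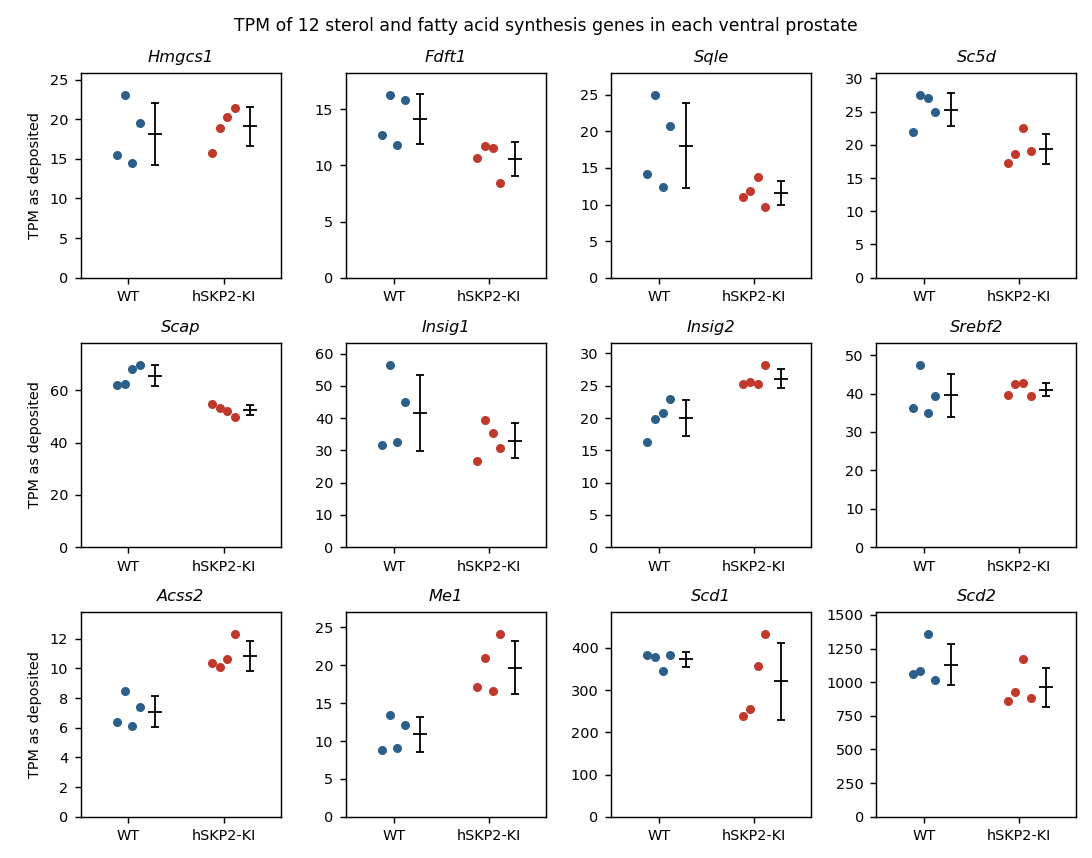
TPM as deposited (y axis, from 0) of 12 members in each WT (blue) and hSKP2-KI (red) ventral prostate, in the order 1 to 4 from left to right, with the mean and SD in black (n = 4). Scap, Insig2, Acss2, Me1 and Fdft1 show no overlap between the genotypes, Fdft1 by a narrow margin.

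Within SREBP control, the transcript of the escort protein fell while those of the transcription factors did not pass. Scap read 54.6, 53.3, 52.1 and 49.9 TPM in hSKP2-KI 1 to 4 and 62.0, 62.5, 68.0 and 69.8 TPM in WT 1 to 4. The genotypes were well apart with little spread inside either. The log2 fold change was -0.32 ± 0.07 (adjusted p = 0.00967) in TPM as deposited and -0.58 ± 0.08 (adjusted p = 0.00331) after scaling, and Scap was the only member called in every alternative tried on both scales. Srebf1 read 114, 87.9, 100.3 and 87.99 TPM in hSKP2-KI and 89.5, 76.3, 95.2 and 100.3 TPM in WT, and overlapped widely. Its log2 fold change was 0.11 ± 0.11 (adjusted p = 0.424) in TPM as deposited and -0.16 ± 0.13 (adjusted p = 0.482) after scaling. Srebf2 read 39.6, 42.5, 42.7 and 39.4 TPM in hSKP2-KI and 36.2, 47.5, 35.0 and 39.4 TPM in WT. It had 0.06 ± 0.10 (adjusted p = 0.623) and, after scaling, -0.20 ± 0.08 (adjusted p = 0.114), where every hSKP2-KI sample lay below every WT sample.

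The INSIG genes, whose products retain SCAP in the endoplasmic reticulum, differed in sign. Insig1, itself an SREBP target, read 26.7, 39.5, 35.4 and 30.7 TPM in hSKP2-KI and 31.8, 56.6, 32.5 and 45.1 TPM in WT, with WT 2 and WT 4 again the highest. Its log2 fold change was -0.29 ± 0.18 (adjusted p = 0.209) in TPM as deposited and -0.55 ± 0.15 (adjusted p = 0.0463) after scaling, a call that held only without hSKP2-KI 2 or without WT 3 and reached 0.0585 to 0.110 without any other sample. Insig2 read 25.3, 25.5, 25.2 and 28.3 TPM in hSKP2-KI and 16.3, 19.9, 20.8 and 22.9 TPM in WT. No WT sample reached the hSKP2-KI range in TPM as deposited, where the log2 fold change was 0.37 ± 0.10 (adjusted p = 0.0207, or 0.0572 without hSKP2-KI 4). After scaling it was 0.12 ± 0.08 (adjusted p = 0.393).

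Mbtps1, the site-1 protease, rose in TPM as deposited (0.35 ± 0.09, adjusted p = 0.0134) and had 0.08 ± 0.07 after scaling (adjusted p = 0.488). Mbtps2, the site-2 protease, did not pass on either scale, with 0.13 and -0.11. Stard4, which carries cholesterol between membranes, averaged 9.93 ± 1.48 TPM in hSKP2-KI and 15.5 ± 5.92 in WT (SD, n = 4), with -0.52 ± 0.24 (adjusted p = 0.106) and, after scaling, -0.77 ± 0.23 (adjusted p = 0.0596). WT 3, at 8.01 TPM, was the lowest of the 8 samples, and without it Stard4 passed on both scales (adjusted p = 0.0106 and 0.00517).

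Among the lipogenesis genes, Acss2 and Me1 rose on both scales. Acss2, which makes acetyl-CoA from acetate, read 10.4, 10.1, 10.6 and 12.3 TPM in hSKP2-KI 1 to 4 and 6.39, 8.46, 6.13 and 7.42 TPM in WT 1 to 4. The lowest of the hSKP2-KI samples lay above the highest of the WT samples. The log2 fold change was 0.55 ± 0.12 (adjusted p = 0.00683) in TPM as deposited and 0.31 ± 0.09 (adjusted p = 0.0479) after scaling. The scaled call was lost without any 1 of the 8 samples (adjusted p of 0.05002 to 0.116). Acss2 was called in 2 of the 16 alternatives tried after scaling and in all 15 in TPM as deposited. Me1, malic enzyme, a source of NADPH, read 17.1, 21.0, 16.6 and 24.1 TPM in hSKP2-KI and 8.78, 13.5, 9.13 and 12.1 TPM in WT. Again the genotypes did not overlap. Me1 had the highest log2 fold change of the 36 genes, 0.81 ± 0.16 (adjusted p = 0.00484) in TPM as deposited and 0.56 ± 0.13 (adjusted p = 0.0228) after scaling, where it missed the threshold without hSKP2-KI 2 (0.0571), hSKP2-KI 4 (0.0563), WT 1 (0.0607) or WT 3 (0.0550).

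Fasn, fatty acid synthase, read 38.5, 40.1, 50.2 and 60.8 TPM in hSKP2-KI and 43.9, 69.7, 50.8 and 52.0 TPM in WT. The genotypes overlapped. The log2 fold change was -0.19 ± 0.16 (adjusted p = 0.350) and, after scaling, -0.46 ± 0.14 (adjusted p = 0.0639, or 0.0322 without hSKP2-KI 4). Scd1, a stearoyl-CoA desaturase, read 238, 254, 358 and 432 TPM in hSKP2-KI and 384, 379, 346 and 382 TPM in WT, so that hSKP2-KI 1 and 2 were far below and hSKP2-KI 4 above the WT range. It had -0.26 ± 0.16 (adjusted p = 0.220) and, after scaling, -0.53 ± 0.17 (adjusted p = 0.0720), and passed without hSKP2-KI 4 on both scales (0.0455 and 0.0303). Scd2, its paralog and the most abundant of the 36 genes, read 859.6, 931, 1175 and 886 TPM in hSKP2-KI and 1061, 1083, 1357 and 1017 TPM in WT. hSKP2-KI 3 lay among the WT samples in TPM as deposited. Its log2 fold change was -0.23 ± 0.12 (adjusted p = 0.149, or 0.0493 without hSKP2-KI 3) and, after scaling, -0.50 ± 0.14 (adjusted p = 0.0472), a call kept only when hSKP2-KI 3 was the sample left out (0.0565 to 0.114 without any other). How reads shared by Scd1 and Scd2 were divided is not given in the sources used here.

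Acaca, acetyl-CoA carboxylase, Acly, ATP citrate lyase, and Elovl6, a fatty acid elongase, passed on neither scale, with scaled log2 fold changes of -0.04, -0.21 and 0.15. Acly passed after scaling without hSKP2-KI 3 (adjusted p = 0.0425, from 0.141). Elovl6 was the least abundant of the 36 genes, at 1.52 ± 0.371 and 1.07 ± 0.388 TPM. Markers of fat, which expresses many of these genes, varied from sample to sample: the summed TPM of 9 adipocyte markers was 199, 476, 292 and 1128 in hSKP2-KI 1 to 4 and 625, 706, 157 and 739 in WT 1 to 4. None of the 9 passed on either scale. hSKP2-KI 4, with the highest adipocyte sum, was, in TPM as deposited, the highest of the 8 samples for 5 of the 8 lipogenesis genes. WT 4, WT 2 and WT 1, with the next highest sums, were the highest for 0, 1 and 0 of them. hSKP2-KI 3, with a lower sum, lay above the gene mean for all 8. The part of fat in these values was not tested.

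The samples of 1 genotype did not all lie alike. WT 2 was the highest of the 8 samples for 14 of the 20 sterol synthesis genes in TPM as deposited and for 11 after scaling, and WT 3 was the lowest for 7 in TPM as deposited. WT 4 lay above the gene mean for all 20 after scaling, WT 1 and WT 2 for 16 each and WT 3 for 9. Among the hSKP2-KI samples, hSKP2-KI 2 and 4 lay above it for 2 each, hSKP2-KI 1 for 4 and hSKP2-KI 3 for 7. The summed TPM of 4 skeletal muscle markers was 387, 359, 252 and 399 in hSKP2-KI 1 to 4. It was 158, 286, 203 and 192 in WT 1 to 4. The highest sums of the genotypes were thus in WT 2 and, only slightly above hSKP2-KI 1, in hSKP2-KI 4. WT 2 and hSKP2-KI 4 were left out for that reason in an alternative chosen after the data were seen. There, 4 members fell (Fdft1, Sc5d, Dhcr7 and Scap) and 0 rose after scaling. That fit called 171 lower and 266 higher of all 13080 tested genes, from 556 and 904 with all 8 samples. With each sample scaled to the 6 luminal epithelial genes, also chosen after the data were seen, 7 members fell (Idi1, Fdft1, Sqle, Tm7sf2, Sc5d, Dhcr7 and Scap) and Me1 rose. That scaling called 267 lower and 864 higher of all tested genes.

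**Figure D4:**
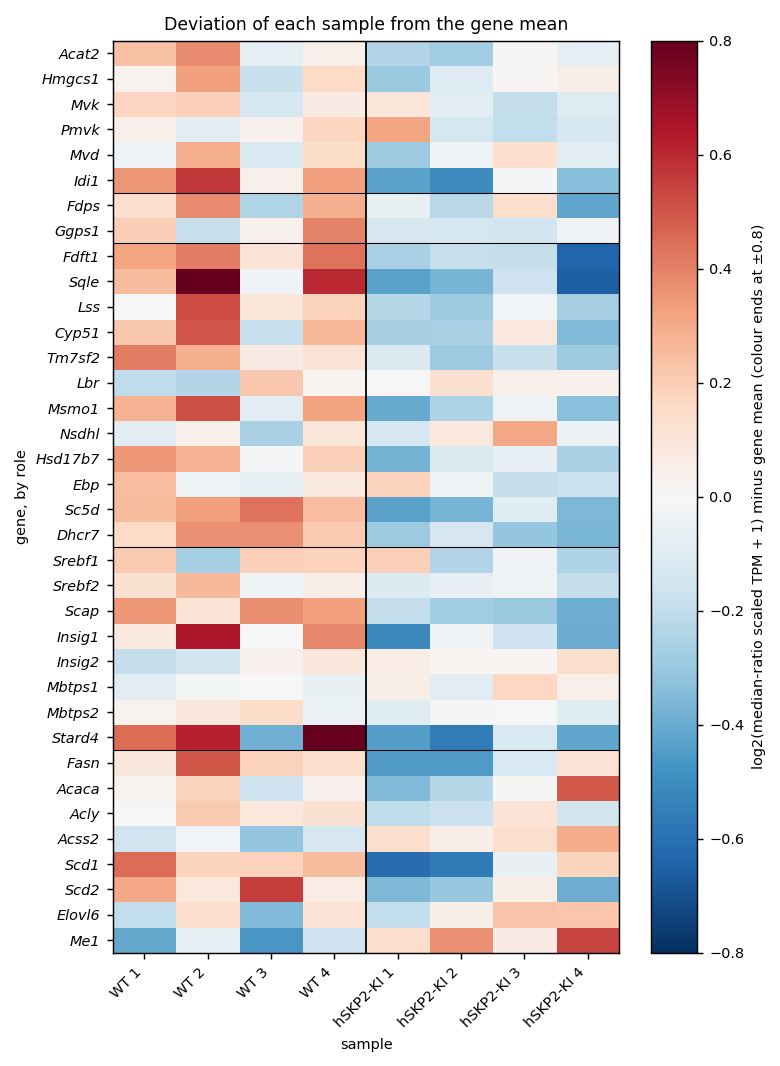
Deviation of each sample (columns) from the mean of its gene (rows, by role, separated by lines) in log2(median-ratio scaled TPM + 1), with red above and blue below the mean and the colour ending at ±0.8. Among the 20 sterol synthesis genes, WT 4 is above the mean for 20 and hSKP2-KI 4 for 2.

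Ratios of 2 genes within a sample, taken as differences of log2(TPM + 1) in TPM as deposited, were compared for 7 pairs with related roles by an exact 2-sided permutation test, whose smallest p with 4 against 4 is 0.0286. The log2 ratio of Insig1 to Insig2 was 0.32 ± 0.26 in hSKP2-KI and 0.99 ± 0.35 in WT (SD, n = 4), a difference of -0.67 without overlap (exact p = 0.0286, adjusted over 7 pairs p = 0.0667). The margin was narrow, with hSKP2-KI 2 at 0.611 and WT 3 at 0.621. Fdft1 against Ggps1, the branches to sterols and to prenyl groups, differed by -0.40, and Acly against Acss2, the citrate and acetate sources of acetyl-CoA, by -0.50, both without overlap and with the same exact p of 0.0286 and adjusted p of 0.0667. Tm7sf2 against Lbr, the pair of C14 reductases, differed by -0.51 (exact p = 0.0571, adjusted p = 0.1) and Hmgcs1 against Fasn by 0.28 (exact p = 0.0857, adjusted p = 0.12). Srebf1 against Srebf2 differed by 0.05 (exact p = 0.857, adjusted p = 0.943) and Scd1 against Scd2 by -0.03 (exact p = 0.943). None of the 7 passed 0.05 after adjustment. The genes of these pairs had been seen in earlier results of these data, so the p-values describe the values and are not independent evidence.

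**Figure D5:**
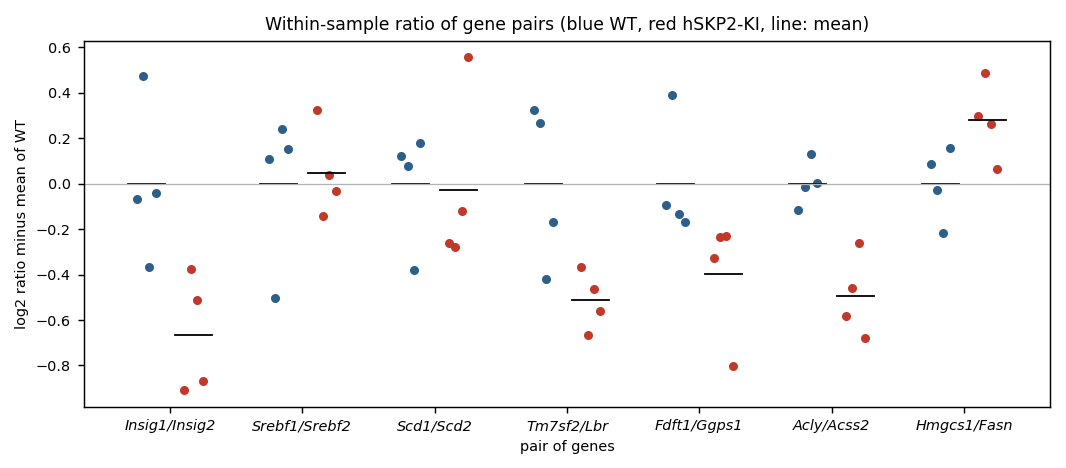
Log2 ratio of 7 gene pairs in each sample, minus the WT mean of the pair (y axis), with WT in blue, hSKP2-KI in red and lines at the means. Insig1/Insig2, Fdft1/Ggps1 and Acly/Acss2 do not overlap between the genotypes, and Srebf1/Srebf2 and Scd1/Scd2 do. The margin of Insig1/Insig2 is narrow.

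Genes that use or receive the products of these pathways were listed by role as well, and their counts stand beside 32.7% higher and 1.23% lower of all tested genes in TPM as deposited, and 6.91% and 4.25% after scaling. Of 10 tested genes of protein prenylation, dolichol and ubiquinone synthesis, 4 rose and 0 fell in TPM as deposited, and 0 rose and 2 fell after scaling: Rabggta (-0.35 ± 0.07, adjusted p = 0.0140) and Pggt1b (-0.29 ± 0.07, adjusted p = 0.0309), subunits of the Rab and type I geranylgeranyl transferases. Of 16 genes of fatty acid elongation, desaturation and activation, 7 rose and 0 fell in TPM as deposited, and after scaling Acsl3, an acyl-CoA synthetase, rose (0.44 ± 0.11, adjusted p = 0.0276) and Tecr, the reductase of the elongation cycle, fell (-0.40 ± 0.08, adjusted p = 0.0187). Sterol transport, esterification and efflux had the highest median of these lists, 0.44 in TPM as deposited and 0.18 after scaling, with 8 of 15 rising and, after scaling, 1 of 15: Soat1, which esterifies cholesterol for storage, at 11.2 ± 1.11 TPM in hSKP2-KI and 5.22 ± 2.60 in WT (0.81 ± 0.23, adjusted p = 0.0475). Macrophages express Soat1 strongly, and the summed TPM of 6 macrophage markers was 165 to 343 in hSKP2-KI and 72.3 to 155 in WT. The part of these cells in the Soat1 values was not tested. Of 7 genes of the sterol-regulated degradation of pathway enzymes, 1 rose in TPM as deposited and none passed after scaling, with medians of 0.12 and -0.15. All 7 lay above 0 in TPM as deposited, 2 of them without overlap, beside 34.0% of all tested genes higher without overlap. After scaling all 7 lay below 0, 2 of them without overlap, beside 8.91% of all tested genes lower without overlap.

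On GRCm38.p6, Fdft1 lies on chromosome 14 (63145150 to 63181687, minus strand), Sqle on 15 (59315092 to 59331193, plus), Sc5d on 9 (42251592 to 42264300, minus), Scap on 9 (110333288 to 110384949, plus), Acss2 on 2 (155518043 to 155562743, plus) and Me1 on 9 (86581363 to 86695914, minus). Exons of Fdft1 overlap those of Ctsb on the other strand, and exons of Acss2 overlap those of Acss2os, Ggt7 and Gss, also on the other strand. Exons of Scap overlap those of 5830462I19Rik and exons of Me1 those of A330041J22Rik, again on the other strand. Exons of Tm7sf2 and Vps51 overlap on the same strand, as do those of Mbtps2 and Yy2. Whether strand was used in counting is not given in the sources used here, so the values of these genes may hold reads of their neighbours.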

How the data were processed

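RNA from 8 ventral prostates (4 of each genotype) was sequenced as poly-A selected RNA libraries and quantified with CLC software, per the study's methods. The authors deposited 1 table of TPM for all samples, which is a share of each library per transcript length, so a gene can rise because others fall. The study's methods state a read depth for the libraries, but the reads of each sample are unknown. The submitters' notes name mm10 and GRCm38; the annotation and strand use are not given in the sources used here. The 13080 genes that reached a TPM of 1 in 4 or more of the 8 samples were tested as log2(TPM + 1) with limma 3.58.1 in R 4.3.3 (trend), with Benjamini-Hochberg adjustment over all of them and a threshold of 0.05. Fold changes on this scale understate those of low genes. The fit ran on TPM as deposited and on TPM divided by median-ratio factors; the test was tried on simulated data first. Because the files held TPM, no count test was used. Pair ratios used an exact permutation test (Python 3.11.15, scipy 1.17.1). All 36 members are named. Per-sample values are given for those called in 1 direction on both scales and for Srebf1, Srebf2, Insig1, Insig2, Hmgcs1, Sqle, Fasn, Scd1 and Scd2. In other lists, at most 3 genes with the smallest scaled adjusted p are named. The members and lists were chosen with earlier results of these data known. Alternatives were other pseudocounts, filters and scalings, sample weights, robust moderation, the replicate block and leaving out samples. Samples are biological replicates per the labels. Promoter windows and gene positions are from RefSeq GRCm38.p6, and exon overlaps from GENCODE M21.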

Additional observations from a re-analysis of the deposited data

Results flagged for a closer look

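In 3 of the 72 groups of 4 samples examined (36 genes in each genotype), 1 sample stood apart from the others of its genotype by Dixon's test. Chance gives about 5% of groups, or 3.6 of 72. Dhcr7 was 16.0 TPM in hSKP2-KI 2 and 13.7 to 13.9 TPM in the other hSKP2-KI samples. Insig2 was 28.3 TPM in hSKP2-KI 4 and 25.2 to 25.5 TPM in the others. Scd1 was 345.6 TPM in WT 3 and 378.9 to 383.6 TPM in the other WT samples.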

How the results depend on the processing

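The number of members called depends on the scale and on single samples. In TPM as deposited, 5 members rose and 4 fell. Median-ratio scaling gave 2 and 11, testing without a filter left 2 lower, and leaving out both hSKP2-KI 4 and WT 2 gave 3 higher and 1 lower. Leaving out 1 sample gave 3 to 5 higher and 1 to 5 lower. Over all tested genes, 4272 were higher and 161 lower on this scale. Without a filter these were 3255 and 161, and with both samples left out 2909 and 115. Without 1 sample they were 2839 to 4548 higher and 114 to 154 lower. After median-ratio scaling, 2 rose and 11 fell. Higher calls were 1 with quantile normalization, 1 with TPM rescaled without the 20 most abundant genes, 1 with scaling to 6 luminal epithelial genes, 1 with the replicate block, 0 without a filter and 0 with both samples left out, and 0 to 1 without 1 sample. Lower calls were 6 without a filter, 4 with both samples left out, 7 with the luminal genes and 7 to 12 without 1 sample. Over all tested genes, scaled calls were 904 higher and 556 lower. They were 709 and 608 with quantile normalization, 892 and 438 without the 20 most abundant genes. With the luminal genes they were 864 and 267, and with the replicate block 869 and 556. Without a filter they were 526 and 357, and with both samples left out 266 and 171. Without 1 sample they were 468 to 810 and 297 to 481. Testing without a filter adjusts over 23826 genes. Leaving out samples lowers the residual degrees of freedom. The other causes were not tested.

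No called member changed sign. Uncalled members near 0 did. In TPM as deposited, Acat2 was 0.000205 with sample quality weights, 0.0512 with both samples left out and -0.112 to 0.0851 without 1 sample. Fdps was 0.185 with both left out and -0.150 to 0.103 without 1 sample. Ggps1 was -0.0838 with weights, -0.0902 with both left out and -0.0517 to 0.124 without 1 sample. Cyp51 was 0.0363 with both left out. Without 1 sample, Hmgcs1 was -0.00837 to 0.205 and Acly -0.0206 to 0.132. After scaling, Acaca was 0.00660 with the luminal genes and -0.211 to 0.0677 without 1 sample, and Elovl6 was -0.00213 under quantile normalization.

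Deviations of samples with the same replicate number correlated at 0.22, -0.11, 0.17 and -0.01. Samples with different numbers were not compared, so these values do not show whether the numbers pair the mice. With the number as a block, all-gene calls in TPM as deposited went from 4272 higher and 161 lower to 4941 and 187. Among members, the block gave 5 higher and 4 lower in TPM as deposited, and 1 higher and 9 lower after scaling. The genes were not the same: with the block in TPM as deposited Fdft1 (adjusted p = 0.0552) and Sqle (0.0560) no longer passed and Dhcr7 (0.0286) and Scd2 (0.0243) did, and after scaling Msmo1 (0.0614), Hsd17b7 (0.0882) and Acss2 (0.0726) no longer passed. No count model was possible with TPM, and the unknown reads of each sample limit what can be said of low genes such as Elovl6.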

Other observations

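Breakdown and storage of fatty acids were examined with lists of the same kind. Of 12 genes of fatty acid oxidation, 6 rose and 0 fell in TPM as deposited, where 32.7% of all tested genes rose and 1.23% fell. Of all tested genes 6.91% rose and 4.25% fell after scaling. In this list 0 then rose and 2 fell: Ehhadh, of the peroxisomal pathway, at 26.7 ± 3.53 TPM in hSKP2-KI and 31.7 ± 1.57 in WT (SD, n = 4, log2 fold change -0.51 ± 0.09 SE, limma adjusted p = 0.0109), and Acaa2, the mitochondrial thiolase, at 226 ± 16.9 and 258 ± 19.0 TPM (-0.46 ± 0.09, adjusted p = 0.0172). Of 9 genes of glycerolipid synthesis, 2 rose in TPM as deposited and 3 fell after scaling. These were Gpam, which starts the pathway in mitochondria (-0.36 ± 0.07, adjusted p = 0.0109), Lpin1, a phosphatidate phosphatase (-0.40 ± 0.10, adjusted p = 0.0321), and Agpat3, an acyltransferase (-0.35 ± 0.09, adjusted p = 0.0355). The medians of these lists after scaling were 0.03 and -0.13, beside -0.01 over all tested genes.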
